A study of Homo sapiens with 8 samples.

Results

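The genes described here are 10 components of the signalling route that runs from BCR and ABL1 through adaptor proteins to the transcription factor STAT5 and its targets: BCR, ABL1, CRKL, GRB2, GAB2, STAT5A, STAT5B, PIM1, CISH and SOCS2. They were listed by symbol, and all 10 were found among the 20453 genes of the deposited count tables. They were selected on measured values: the abundance of BCR, its lower mRNA in the mutant, and the erythroid genes seen in these cells. The BCR mRNA values below are therefore a description, without a test. The study compared cells labelled THP-1, a human line from acute monocytic leukaemia, transduced with wild-type DNMT3A (labelled wt) with the same cells transduced with a mutant DNMT3A (labelled DNMT3A mutation). DNMT3A adds methyl groups to unmethylated DNA, and its gene is often mutated in acute myeloid leukaemia. The 4 groups, each with 2 libraries, were mRNA (RNA-seq) and ribosome footprints (ribosome profiling, which sequences the mRNA pieces shielded by ribosomes) of either genotype. The labels give no dose, time or clone and do not say whether the cells' own DNMT3A was kept. Nor do they tie replicates to separate cultures, so the p-values take in no more than the variation between these libraries, possibly technical.

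BCR encodes a large cytoplasmic protein with a GTPase-activating domain for RAC, and ABL1 a tyrosine kinase of the cytoplasm and nucleus. In chronic myeloid leukaemia a translocation joins the genes into a fusion whose constitutive kinase binds GRB2, GAB2 and CRKL and leads to phosphorylation of STAT5. In normal erythroid cells STAT5 is activated by JAK2 at the erythropoietin receptor. PIM1, CISH and SOCS2 are textbook STAT5 target genes, and CISH and SOCS2 in turn inhibit cytokine receptors. Counts per gene do not separate reads of a fusion transcript from reads of either normal gene, so whether these cells carry such a fusion was not tested.

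Total counts lay between 3415999 and 4523475 in the mRNA libraries and between 603360 and 1988513 in the footprint libraries. Levels are given as CPM, the normalised read count scaled to the effective library size, which is not divided by transcript length, so levels are compared between libraries and not between genes. DNMT3A mRNA was lower in the mutant, with 291 and 294 CPM against 240.5 and 244 CPM (log2 fold change -0.27, edgeR adjusted p = 4.3e-06). DNMT3A footprints stood at 137 and 153 CPM against 143 and 148 CPM and were not called (log2 fold change -0.0026, edgeR adjusted p = 0.992). The counts do not tell the transduced DNMT3A from the endogenous one. Marker genes went against the labelled monocytic cell type: 12 of 22 monocyte or macrophage markers had no count in any mRNA library, S100A8, S100A9, CSF1R and IRF8 among them, and 3 or 4 of the 22 reached 10 CPM in a library. By contrast 17 to 19 of 23 erythroid or megakaryocyte markers passed that level. Their summed mRNA level lay between 4064 and 4134 CPM in wild-type and between 3514 and 3565 CPM in mutant libraries, and their summed footprints between 5019 and 5155 CPM and between 4531 and 4609 CPM. The myeloid granule genes MPO and ELANE and the platelet genes PF4 and PPBP had no mRNA count. None of 8 B cell markers and 1 of 12 T or NK cell markers reached 10 CPM, against 4 of 10 epithelial or fibroblast markers. The summed mRNA level of the last list lay between 1172 and 1210 CPM in wild-type and between 920.4 and 924 CPM in mutant libraries. The erythroid and epithelial sums were thus lower in the mutant, as were several of the genes below; their part in those results was not tested.

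**Figure D1:**
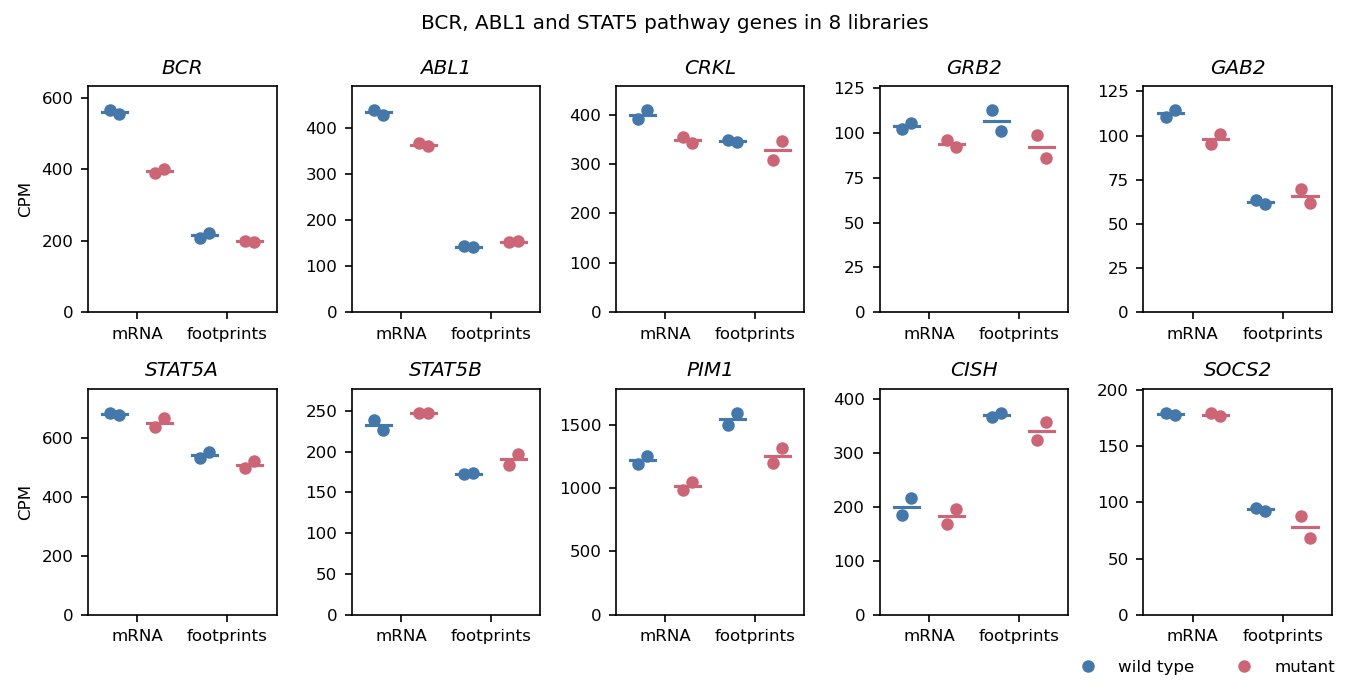
Level of each of the 10 genes in CPM (y axis from 0, a separate scale per gene) in mRNA and footprint libraries of wild type (blue) and mutant (red); points are the 2 libraries of a group and lines their means. BCR and ABL1 mRNA lie apart between genotypes while their footprints lie close together, and PIM1 is lower in the mutant in both assays.

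The fusion partners are described first. BCR (ENSG00000186716, GRCh38 chromosome 22, 23180509 to 23318037) had mRNA levels of 565 and 553 CPM in wild type and of 389 and 399 CPM in the mutant. Both mutant values lay far below both wild-type values, and the level fell to 0.705 of wild type (log2 fold change -0.50, SE 0.045, n = 2 libraries per group). This difference was among those that chose the genes, and only 4.8% of the 10756 genes tested had a lower log2 fold change. In bulk samples, fewer cells of a type and less RNA per cell cannot be told apart. BCR footprints, which the choice did not use, stood at 207 and 222 CPM in wild-type and at 199 and 197 CPM in mutant libraries. The mutant libraries were again the lower ones, but by a small margin: the log2 fold change of -0.12 (SE 0.096) was not called by edgeR's quasi-likelihood test (adjusted p = 0.424 by Benjamini-Hochberg over all genes), with a 95% interval of -0.31 to 0.08.

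ABL1 (ENSG00000097007, chromosome 9, 130713043 to 130887675) had an mRNA level of 439 and 429.7 CPM in wild-type and of 367 and 361 CPM in mutant libraries. The genotypes did not overlap, and ABL1 mRNA fell with a log2 fold change of -0.25 (SE 0.047, edgeR adjusted p = 1e-06). ABL1 footprints stood at 144 and 141 CPM in wild-type and at 152 and 155 CPM in mutant libraries. Here the mutant libraries were the higher ones, and the difference was not called (log2 fold change 0.10, SE 0.11, 95% interval -0.12 to 0.32, edgeR adjusted p = 0.553). Both partners therefore had less mRNA in the mutant and footprints whose difference from wild type did not pass the test.

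**Figure D2:**
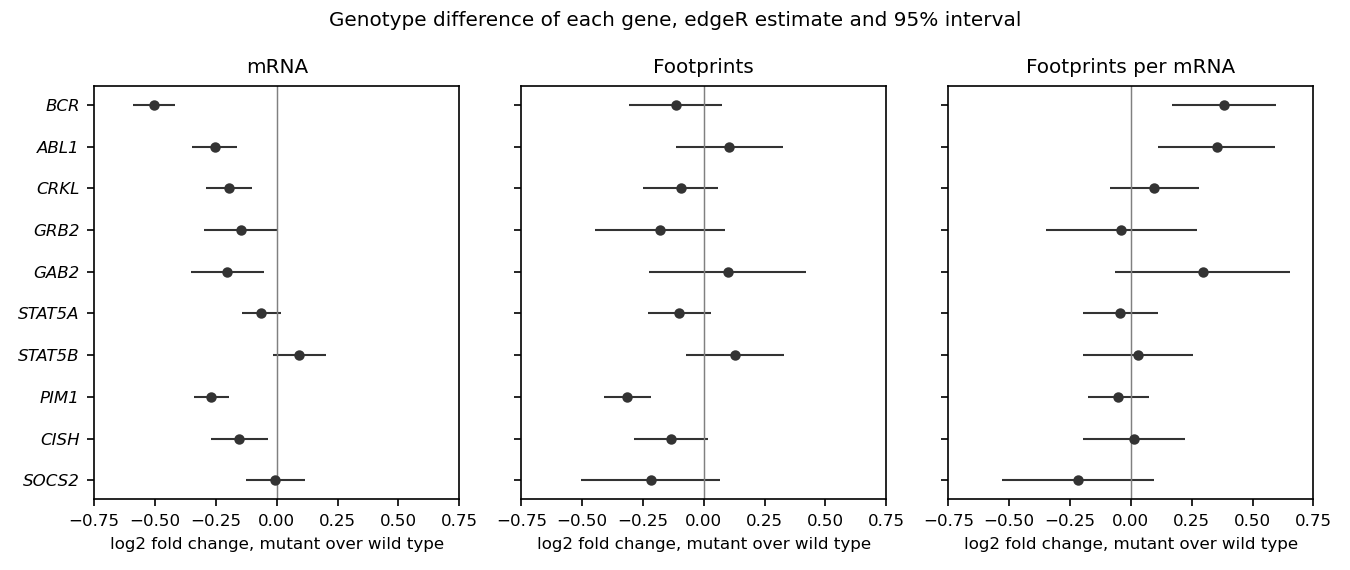
Log2 fold change of mutant over wild type for the 10 genes (y axis) in mRNA, footprints and footprints per mRNA (panels); points are edgeR estimates and bars 95% intervals. In mRNA, BCR lies lowest at -0.50 and only STAT5B is above 0; in footprints the interval of PIM1 alone stays clear of 0; in footprints per mRNA BCR and ABL1 lie highest at 0.38 and 0.35.

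Footprints per mRNA were fitted as the interaction of genotype and assay over the 8 libraries. The ratio was higher in the mutant for BCR by a log2 value of 0.38 (SE 0.11, 95% interval 0.17 to 0.60), which is a description because the mRNA values that chose BCR enter it. Over 14 alternative settings the BCR value stayed between 0.34 and 0.44. No threshold is applied to BCR here, because the mRNA values that chose it enter every setting. For ABL1 the value was 0.35 (SE 0.12, 95% interval 0.11 to 0.59, edgeR adjusted p = 0.0796), which was not called. Of the other 9 genes none was called in footprints per mRNA by edgeR or by DESeq2, and 1 of them, ABL1, had an unadjusted edgeR p under 0.05. Over all 9166 genes tested in this comparison 4.16% were called, 1.67% higher and 2.49% lower in the mutant. GAB2 had a wide interval (log2 value 0.29, -0.07 to 0.66), and the other 7 lay between -0.22 (SOCS2) and 0.095 (CRKL).

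In wild type the level of footprints relative to mRNA was lowest, among the 10 genes, for the 2 fusion partners. Expressed against the median of the 9166 genes, wild-type BCR had a log2 ratio of footprint to mRNA CPM of -1.48 and -1.34 (replicates 1 and 2), or 0.375 of the median gene, and 5.28% of genes had a lower ratio. ABL1 had -1.64 and -1.63, or 0.321 of the median gene, with 3.22% of genes lower. Both genes sat closer to the median in the mutant, with BCR at -0.98 and -1.04 and ABL1 at -1.29 and -1.24. The abundance and the mRNA fall that chose BCR enter its ratios, so its rank and its shift are a description, without a test. The order differed in the mutant, where SOCS2, at -1.04 and -1.38, had a lower mean (-1.21) than BCR (-1.01). SOCS2 and GAB2 followed in wild type with mean log2 ratios of -0.96 and -0.88. STAT5B, STAT5A, CRKL and GRB2 in wild type lay between -0.46 and 0.0047, in that order. PIM1 at 0.30 and CISH at 0.86 carried more footprints per mRNA than the median gene, and 88.3% of genes had a lower ratio than CISH. The order among neighbours was not tested with 2 libraries a group, and the means of SOCS2 and GAB2 lay closer together than the replicates of GAB2 did. The ratio depends on whether reads over untranslated regions were counted in the mRNA libraries, which is not given in the sources used here, and its part in this order was not tested.

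**Figure D3:**
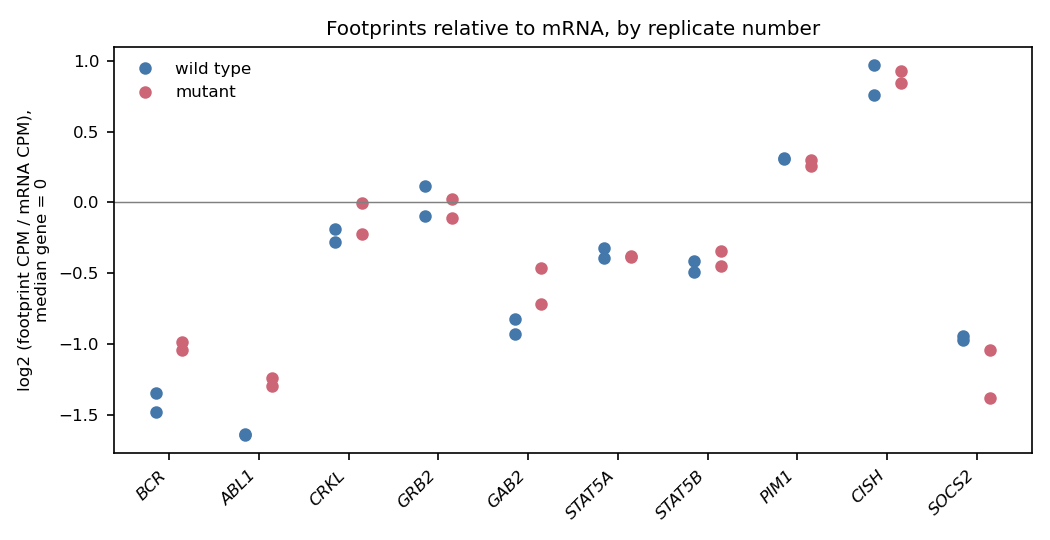
Log2 ratio of footprint to mRNA CPM for each of the 10 genes (x axis), with the median of all genes tested set to 0 (y axis); each point pairs the footprint and mRNA libraries of 1 replicate number, which the labels do not tie to a shared culture, in wild type (blue) and mutant (red). In wild type ABL1 and BCR lie lowest, in the mutant ABL1, SOCS2 and BCR, with no BCR ratio above -0.98; CISH lies highest, with no ratio below 0.76.

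The adaptors were next. CRKL (chromosome 22, 20917407 to 20953747), an SH2 and SH3 adaptor that is a preferred substrate of ABL1 fusions, had an mRNA level of 391 and 409 CPM in wild-type and of 355 and 343 CPM in mutant libraries. The genotypes did not overlap and CRKL mRNA fell (log2 fold change -0.20, SE 0.048, edgeR adjusted p = 0.000279). Its footprints, at 349 and 344 CPM in wild-type and 308 and 347 CPM in mutant libraries, overlapped and were not called (log2 fold change -0.096, edgeR adjusted p = 0.414). GAB2, a scaffold that recruits PI3-kinase and the phosphatase SHP2, had 111 and 114 CPM in mRNA of wild type and 95.2 and 101 CPM in that of the mutant, a fall of small size (log2 fold change -0.20, SE 0.076, edgeR adjusted p = 0.0251). This call was lost with DESeq2, without the filter on low counts, and without either wild-type mRNA library or mutant mRNA replicate 1. Its footprints were few, with 38 to 119 counts per library, and stood at 63.6 and 61.1 CPM against 69.6 and 61.9 CPM (log2 fold change 0.098, edgeR adjusted p = 0.73). GRB2, which links tyrosine kinases to the RAS exchange factor SOS1, had 102 and 106 CPM in mRNA of wild type and 96.1 and 92.1 CPM in that of the mutant, without overlap but without a call (log2 fold change -0.15, SE 0.078, edgeR adjusted p = 0.127). GRB2 footprints stood at 113 and 101 CPM against 98.7 and 86.3 CPM (log2 fold change -0.18, edgeR adjusted p = 0.362).

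The transcription factors STAT5A and STAT5B are near-identical paralogs that lie side by side on chromosome 17 and whose annotated spans share 932 bases (42287439 to 42288370). Reads of the shared bases, or of stretches the paralogs have in common, cannot be assigned with certainty without the strand and multi-mapping settings. STAT5A mRNA stood at 686 and 678 CPM in wild-type and at 637 and 668 CPM in mutant libraries. STAT5B mRNA stood at 238 and 226 CPM in wild-type and at 247 and 247 CPM in mutant libraries. The mutant libraries were thus on the low side for STAT5A and on the high side for STAT5B, and neither difference was called (log2 fold changes -0.064 and 0.093, edgeR adjusted p = 0.217 and 0.176). Footprints showed the same sides without a call, with STAT5A at 534 and 555 against 498 and 521 CPM (-0.10 on the log2 scale, edgeR adjusted p = 0.283) and STAT5B at 173 and 174 against 184 and 197 CPM (0.13, adjusted p = 0.396). The 95% intervals of the mRNA differences, -0.14 to 0.02 for STAT5A and -0.02 to 0.20 for STAT5B, bound the changes these libraries allow under this fit.

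Among the targets, PIM1 (ENSG00000137193, chromosome 6, 37170152 to 37175428), a serine/threonine kinase that promotes survival and growth, changed in both assays. PIM1 mRNA stood at 1192 and 1257 CPM in wild-type and at 987 and 1050.5 CPM in mutant libraries, and its footprints at 1501 and 1593 CPM against 1194 and 1315 CPM. Neither pair of genotypes overlapped. PIM1 fell in mRNA (log2 fold change -0.27, SE 0.037, edgeR adjusted p = 3.3e-11) and in footprints (log2 fold change -0.31, SE 0.048, edgeR adjusted p = 1.3e-07), and footprints per mRNA were not called (-0.052, SE 0.063, edgeR adjusted p = 0.74). Without mutant footprint replicate 1 the footprint difference was -0.24 and lost its call (edgeR adjusted p = 0.0771).

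CISH (chromosome 3, 50606489 to 50611774), an SH2 protein that blocks STAT5 docking sites on cytokine receptors, had STAT5-type motifs before its start site. Its promoter sequence was searched because STAT5 dimers bind TTCNNNGAA, a palindrome that reads the same on both strands. Of the 10 genes 9 matched the RefSeq promoter table (all but SOCS2), with 12 start windows, and among these, in the 250 bases before the start only the CISH window held the motif, 4 times. Over 34943 windows of the same length 6.56% held at least 1 match and 5 windows (0.0143%) held at least 4. The stretches that hold the CISH matches are shown with the motif in capitals, on the minus strand of GRCh38.p14, 5′ to 3′. The distal stretch lies 246 to 217 bases before the start at chr3:50611991-50612020, and the proximal one 131 to 102 bases before it at chr3:50611876-50611905.
CISH distal pair: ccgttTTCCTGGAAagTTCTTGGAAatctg
CISH proximal pair: ggTTCTAGGAAgacgctgcTTCCGGGAAgg
A match describes these letters and does not show binding. Among 22 other known STAT5 targets 17 matched the table, with 25 windows, of which 1 held the motif.

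CISH mRNA stood at 184 and 216 CPM in wild-type and at 168 and 196 CPM in mutant libraries. The wild-type replicates differed from each other by more than the group means did and the genotypes overlapped, so the call was marginal (log2 fold change -0.15, SE 0.06, edgeR adjusted p = 0.0299). It did not hold with DESeq2, without the filter on low counts, without wild-type mRNA replicate 2 (-0.017) or without mutant mRNA replicate 1 (-0.044). CISH footprints stood at 367 and 374 CPM against 324 and 357 CPM and were not called (log2 fold change -0.14, SE 0.077, edgeR adjusted p = 0.211). The annotated span of CISH shares 255 bases with MAPKAPK3, so part of its reads may belong to that gene. SOCS2 (chromosome 12, 93569969 to 93626236), an inhibitor of growth hormone and cytokine receptors, had 179.7 and 178 CPM in mRNA of wild type and 179.6 and 177 CPM in that of the mutant, nearly the same values (log2 fold change -0.0052, 95% interval -0.13 to 0.12, edgeR adjusted p = 0.957). SOCS2 footprints stood at 95.1 and 92.4 CPM against 88.3 and 68.4 CPM, where mutant replicate 2 rested on 42 counts (log2 fold change -0.22, SE 0.14, edgeR adjusted p = 0.295).

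Counted together, 5 of the 9 genes other than BCR fell in mRNA (ABL1, CRKL, GAB2, PIM1 and CISH), none rose and 4 were not called. Over all genes tested 37.7% were called, 18.9% higher and 18.9% lower in the mutant, and the genes were chosen with this contrast in view, so nothing is read from their share. The median log2 fold change was -0.15 for the 9 genes and -0.0022 for all genes. ABL1 and PIM1 alone kept their call without wild-type mRNA replicate 2, and ABL1, CRKL and PIM1 without mutant mRNA replicate 1. With an assumed coefficient of variation of 10% between replicates none of the 9 was called, and of the other genes named below only JAK2, TYK2 and RAC3 kept an mRNA call. In footprints 1 of the 10 genes, PIM1, fell and none rose, where 21.2% of the 9181 genes tested were called, 10.3% higher and 10.9% lower. The median log2 fold change of footprints was -0.11 for the 10 genes and 0.0055 for all genes.

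Part of these values moved with the number of genes around a locus. The log2 fold change of all genes followed a trend with local gene density, counted as RefSeq protein-coding genes within 1 Mb of the start, and this trend ranged from -0.31 to 0.34 in mRNA, with lower values where genes are dense. BCR, with 27 neighbours in that window, ABL1 with 26 and PIM1 with 25 lay where the trend was near 0 (-0.028, -0.020 and -0.011). STAT5A with 80 and STAT5B with 85 lay in a dense region (trend -0.24 and -0.25), and SOCS2 with 9 in a sparse one (0.16). With the trend removed, BCR stood at -0.48, ABL1 at -0.23 and PIM1 at -0.26 in mRNA. STAT5A then turned to a rise of 0.18 (edgeR adjusted p = 0.000185), STAT5B rose by 0.35 (adjusted p = 1.7e-08) and SOCS2 fell, with -0.17 (adjusted p = 0.0277). The calls of CRKL (-0.10) and CISH (-0.036) were lost, and GRB2 turned to 0.064 without a call. In footprints STAT5B had 0.31 with the trend removed and was called (edgeR adjusted p = 0.0229), and STAT5A turned to 0.073 without a call. The direction of STAT5A and the call of STAT5B thus depend on this setting, while BCR, ABL1 and PIM1 mRNA kept their direction.

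**Figure D4:**
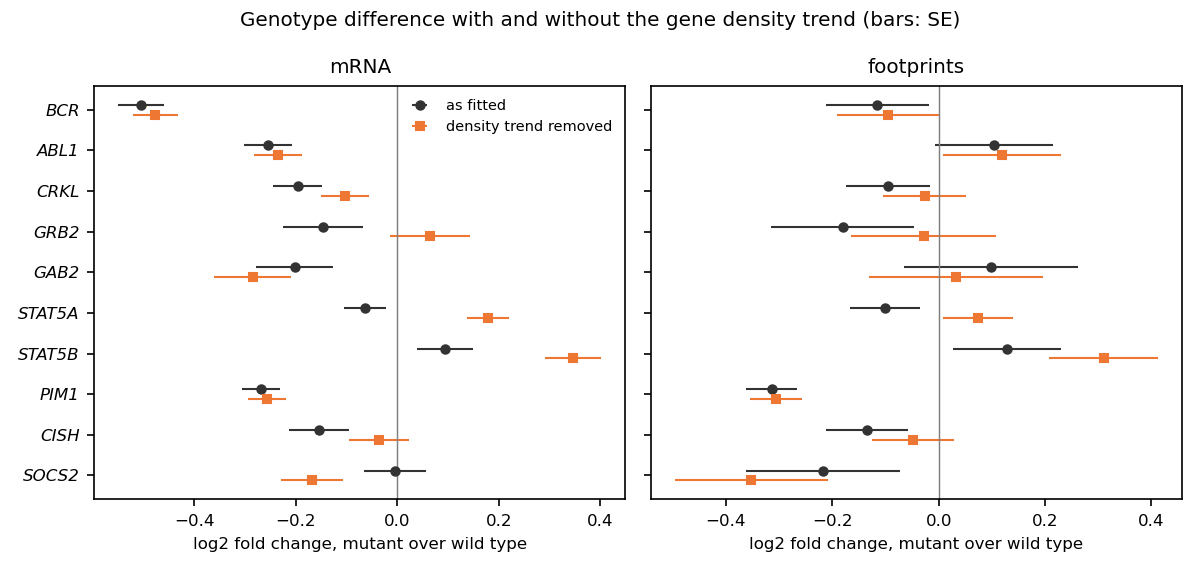
Log2 fold change of mutant over wild type for the 10 genes as fitted (black circles) and with the trend with local gene density removed (orange squares), in mRNA and footprints; bars are standard errors. BCR, ABL1 and PIM1 hardly move, whereas STAT5A passes from -0.064 to 0.18 and STAT5B from 0.093 to 0.35 in mRNA.

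Genes beside the fusion partners were read for the same contrast. All 6 listed protein-coding genes that start within 500 kb of BCR, among them IGLL5, RSPH14, GNAZ and RAB36, were too low to be tested in any comparison. Of 10 genes around ABL1 6 were tested in mRNA, 1 rose and none fell, where 37.7% of all genes were called, 18.9% higher. The one that rose was ASS1, the argininosuccinate synthase gene, with 30.7 ± 2.02 CPM (SD, n = 2) in mRNA of wild type and 46 ± 3.18 CPM in that of the mutant (log2 fold change 0.59, edgeR adjusted p = 1.6e-05), named after its values were seen. NUP214, a nuclear pore gene named in the same way, stood at 1059 ± 16.9 and 1029 ± 9.58 CPM and was not called (log2 fold change -0.043, edgeR adjusted p = 0.384). The 6 values ran from -0.12 (AIF1L, 95% interval -0.48 to 0.23, which holds the ABL1 value) to 0.59, and their difference from ABL1 was not tested.

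The genes whose values over the 8 libraries lay closest to BCR, by Euclidean distance of log2 CPM centred within each assay among 3067 genes with at least 100 counts on average in each assay, were IRAK1, ABCA2, ATP13A1, ADGRL1 and TNRC18. Their distances ran from 0.11 to 0.14, against a median of 0.56 over those genes. They lie on chromosomes X, 9, 19, 19 and 7. In mRNA their log2 fold changes ran from -0.46 (IRAK1) to -0.41 (ATP13A1), and in footprints from -0.12 (ATP13A1) to -0.053 (IRAK1). These genes were picked for likeness to BCR over the same libraries, so both directions are a description, without a test. With the density trend removed the mRNA value of IRAK1 was -0.27.

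The wider pathway was read from 5 lists, which share 4 genes among themselves. Receptors, JAKs and other STATs come first. JAK2, the kinase that phosphorylates STAT5 at the erythropoietin receptor, stood at 46.3 and 53.3 CPM in mRNA of wild type and at 72.5 and 76.1 CPM in that of the mutant, and its footprints at 20.8 and 16.4 against 42.6 and 39.1 CPM. Both assays separated the genotypes, and JAK2 rose in mRNA (log2 fold change 0.56, SE 0.098, edgeR adjusted p = 1.8e-07) and in footprints (1.16, SE 0.24, adjusted p = 9.98e-05). The footprint counts were only 24 to 41 per library, and the footprint call was lost without mutant footprint replicate 1 (edgeR adjusted p = 0.0892). The receptor gene EPOR fell in mRNA from 50.3 ± 0.238 to 40.2 ± 5.08 CPM, a log2 fold change of -0.33 (edgeR adjusted p = 0.0124). This call did not hold with DESeq2, without either wild-type mRNA library, without mutant mRNA replicate 1 or with the density trend removed. TYK2, another JAK kinase, fell in mRNA with -0.53 (edgeR adjusted p = 4.3e-12), or -0.35 with the density trend removed. STAT2, the interferon STAT, rose in footprints (0.60, edgeR adjusted p = 0.0107), a call lost without mutant footprint replicate 1, and in mRNA was called only with the density trend removed (0.37). Of 22 listed genes 11 were tested in mRNA, of which 1 rose, 2 fell and 8 were not called. In mRNA 37.7% of all genes were called, 18.9% higher and 18.9% lower. In footprints 2 of 9 rose and none fell, where 21.2% of all genes were called, 10.3% higher. These counts are not read as particular to the list.

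Inhibitors of the pathway that were called in mRNA or footprints fell, and in footprints per mRNA 1 rose and 1 fell. SOCS1, an inhibitor of JAK kinases, fell in mRNA from 70.7 ± 2.28 to 52.9 ± 3.67 CPM, a log2 fold change of -0.43 (edgeR adjusted p = 0.000107). SOCS3 mRNA fell from 65.7 ± 1.98 to 53.3 ± 1.68 CPM (-0.31, edgeR adjusted p = 0.00718). The SOCS3 call did not hold with DESeq2, without wild-type mRNA replicate 2 or without mutant mRNA replicate 1. SH2B3 (LNK), which binds and restrains JAK2, stood at 296 and 286 CPM in mRNA of wild type and at 212 and 243 CPM in that of the mutant, but at 66.2 and 82.7 against 95.5 and 89.6 CPM in footprints. Its mRNA fell (log2 fold change -0.36, edgeR adjusted p = 1.1e-09) and its footprints were not called (0.31, edgeR adjusted p = 0.12). SH2B3 footprints per mRNA rose (0.66, SE 0.16, edgeR interaction adjusted p = 0.00782). Footprints per SH2B3 mRNA lost their call without wild-type or without mutant footprint replicate 1. PIAS4, a SUMO ligase of the PIAS family, fell in mRNA, footprints and footprints per mRNA (log2 values -0.30, -1.20 and -0.90, edgeR adjusted p = 0.045, 4.8e-05 and 0.0466), on 14 and 19 footprint counts in the mutant libraries. Its mRNA call did not hold with DESeq2, without the filter, with the density trend removed or without any 1 of the 4 mRNA libraries. Its footprint call was lost without mutant footprint replicate 1. Its call in footprints per mRNA was lost without the filter and with each of 6 of the 8 libraries left out. In all, 4 of 14 tested inhibitors fell in mRNA and none rose, with a median log2 fold change of -0.095, where 18.9% of all genes were called lower and 37.7% either way. In footprints 1 of 13 fell and none rose, where 10.9% of all genes were called lower. These counts are not read as particular to the inhibitors.

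The called genes among other known STAT5 targets all fell. Of 19 tested in mRNA 8 fell, none rose and 11 were not called (median log2 fold change -0.23, or -0.21 relative to the density trend), where 37.7% of all genes were called, 18.9% lower. Of 18 tested in footprints 6 fell and none rose (median -0.27), where 21.2% of all genes were called, 10.9% lower. The called share of the list in mRNA was thus near that of all genes when both directions are counted, but every call in the list was a fall. The list was chosen with earlier results of these data known, so nothing is read from its shares. SOCS1 and SOCS3 are in this list too. MYC, a growth-promoting transcription factor, fell from 1273 and 1263 to 974 and 980 CPM in mRNA (log2 fold change -0.38, edgeR adjusted p = 3.2e-21) and from 1369.6 and 1376 to 946 and 989 CPM in footprints (-0.51, adjusted p = 4.1e-15). ID1, an inhibitor of helix-loop-helix factors, had log2 fold changes of -0.46 in mRNA and -0.84 in footprints, PIM3, a paralog of PIM1, of -0.45 in mRNA, and the G1 cyclin gene CCND3 of -0.23 and -0.16. BCL2L1, the anti-apoptotic target best known in erythroid cells, stood at 128 ± 3.05 and 136 ± 8.19 CPM in mRNA and was not called (log2 fold change 0.09, edgeR adjusted p = 0.295). With the density trend removed MYC mRNA stood at -0.67 and CCND3 mRNA at -0.13. The footprint call of ID1 was lost without mutant footprint replicate 1. That of CCND3 was lost with DESeq2, with the density trend removed and without any 1 of the 4 footprint libraries.

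**Figure D5:**
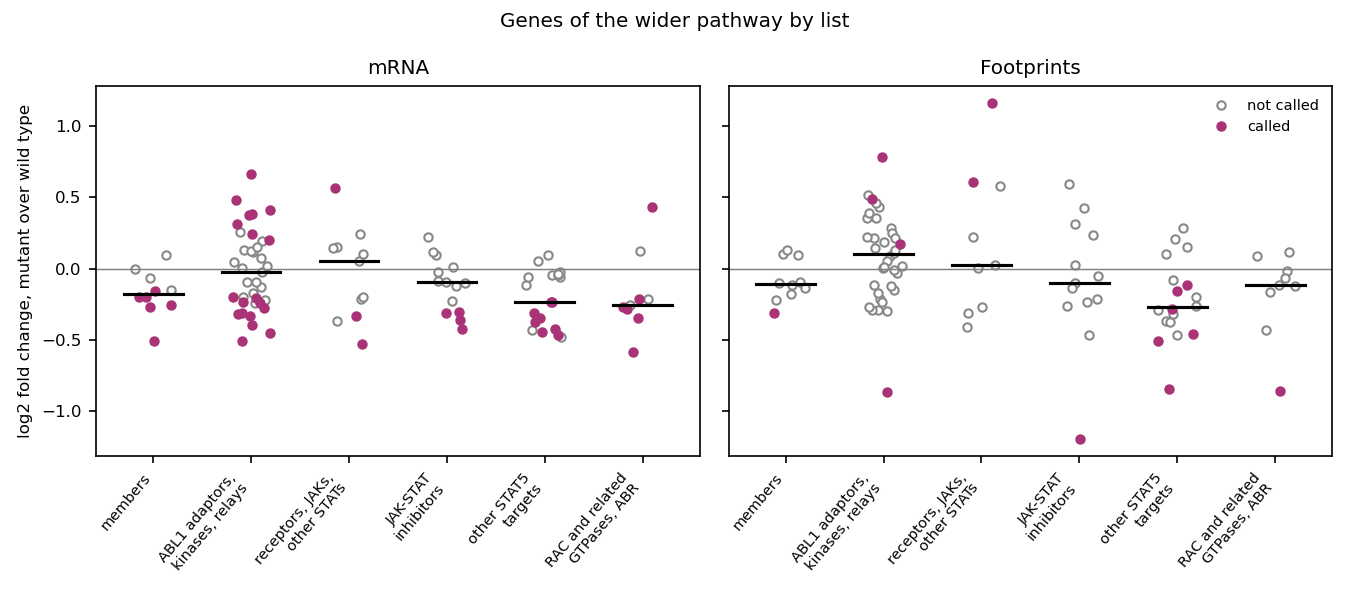
Log2 fold change of mutant over wild type in mRNA and footprints for every tested gene of the 10 members and of the 5 wider lists (x axis); filled points passed edgeR at an adjusted p under 0.05, open points did not, and lines are medians. All called genes among the JAK-STAT inhibitors and other STAT5 targets lie below 0, while called ABL1 adaptors, kinases and relays lie on both sides in mRNA.

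Adaptors, kinases and RAS-MAPK or PI3-kinase relays downstream of ABL1 moved both ways: of 37 tested in mRNA 8 rose, 11 fell and 18 were not called, with a median log2 fold change of -0.027. Over all genes 37.7% were called in mRNA, 18.9% higher and 18.9% lower in the mutant. The RAS gene NRAS rose from 54.7 ± 5.93 to 77 ± 5.16 CPM, a log2 fold change of 0.48 (edgeR adjusted p = 4.5e-06), and the exchange factor gene SOS1 from 115 ± 7.13 to 149 ± 6.54 CPM (0.38), while AKT1 fell from 227 ± 3.66 to 184 ± 0.0795 CPM (-0.31). In footprints 3 of 36 rose and 1 fell, where 21.2% of all genes were called, 10.3% higher and 10.9% lower. In the list of RAC and related small GTPases with their inhibitors, RAC3 fell in mRNA from 157 ± 2.06 to 105 ± 4.59 CPM, a log2 fold change of -0.58 (edgeR adjusted p = 1.4e-14), and RAC2, RAC1 and the inhibitor gene ARHGDIA had -0.27, -0.22 and -0.35. Of 9 tested 5 fell, 1 rose and 3 were not called, where 18.9% of all genes were called lower and 37.7% either way. These counts are not read as particular to either list. With DESeq2 neither the RAC1 nor the RAC2 call held. The RAC1 call was also lost without wild-type mRNA replicate 2, and that of RAC2 with the density trend removed (-0.13). ABR, the paralog of BCR, stood at 27.4 ± 0.102 and 23 ± 1.7 CPM and was not called (log2 fold change -0.26, edgeR adjusted p = 0.169).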

How the data were processed

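Each library came as 1 deposited table of raw counts, whole numbers of reads for every Ensembl gene. Per the submitters' processing notes, reads were handled with featureCounts, STAR, Bowtie2, Trimmomatic and cutadapt on GRCh38 (hg38); no order or version is named there. Strand, counted feature and the rule for multi-mapping reads: not given in the sources used here. Of 20453 IDs 20407 matched a symbol. Coordinates and promoters are from RefSeq GRCh38.p14. The test was edgeR 4.0.16 under R 4.3.3 (glmQLFit with legacy set to FALSE, glmQLFTest), with TMM factors within each assay, filterByExpr, and Benjamini-Hochberg adjustment over all genes tested; a gene was called at an adjusted p under 0.05. Each SE is the log2 fold change divided by the square root of the F statistic. Alternatives were RLE factors, DESeq2 1.42.0, no filter, a replicate block, an assumed coefficient of variation of 10%, removal of a loess trend with gene density, and each library left out. The procedure was tested on simulated counts with a fixed variation between libraries and fold changes larger than most of those above. That simulation does not gauge smaller changes. Members and lists were chosen with earlier results of these data known. Named genes are all members, DNMT3A, the genes most like BCR, JAK2, EPOR, BCL2L1, MYC, ABR, and up to 4 genes per list with the smallest mRNA p among those called in any comparison. Of the genes this rule names, 1 is not reported here. Footprint depth was the lower, with 38 to 3103 counts per member and library against 347 to 5616 in mRNA.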

Additional observations from a re-analysis of the deposited data

How the results depend on the processing

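Among the 9 genes other than BCR, the 5 mRNA calls became 3 with DESeq2, 3 without the filter on low counts, 0 with an assumed coefficient of variation of 10%, and between 2 and 5 with 1 library left out. The 1 footprint call became 0 with the assumed coefficient of variation and 2 with the density trend removed, and lay between 0 and 1 with 1 library left out. Over all genes, calls in mRNA, footprints and footprints per mRNA were 4060, 1950 and 381 with edgeR, 1458, 384 and 125 with DESeq2, and 313, 288 and 13 with the assumed coefficient of variation. The cause of these differences was not tested.

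Of the members' values under the alternatives, 76 of 100 in mRNA, 94 of 100 in footprints and 123 of 140 in footprints per mRNA kept direction and side of the threshold. BCR values in mRNA and in footprints per mRNA are among these as a description only. With the density trend removed, the values that changed sign were GRB2 mRNA (0.064), STAT5A mRNA (0.18) and footprints (0.073), IRAK1 and ABCA2 footprints (0.087 and 0.054), and STAT5B and CISH footprints per mRNA (-0.040 and -0.014). Without the filter SOCS2 mRNA was 0.0058 and CISH footprints per mRNA -0.0076. With 1 library left out, SOCS2 mRNA ranged from -0.018 to 0.0099, and in footprints CRKL from -0.17 to 0.0034, GAB2 from -0.0073 to 0.16 and IRAK1 from -0.094 to 0.0012. Footprints per mRNA then ranged from -0.12 to 0.13 for CISH, from -0.013 to 0.088 for STAT5B, from -0.16 to 0.034 for GRB2 and from -0.11 to 0.025 for PIM1.

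Same-numbered libraries hardly deviated together (r over genes between 0.018 and 0.056). Count noise enters these values too, so they cannot decide whether same-numbered libraries share a culture. With the replicate block 5 of the 9 genes were called in mRNA, 1 of 10 in footprints and 0 of 9 in footprints per mRNA. Standard errors of the members' genotype differences reached 0.16 in footprints against 0.078 in mRNA. The mutant footprint libraries had the lowest total counts (944824 and 603360), and the part of depth in these errors was not tested.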
